A study of Mus musculus with 2 samples.

Results

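The adhesion G protein-coupled receptors of mouse cells labelled as blood stem cells were described gene by gene in a pair of total RNA libraries. The members were the protein-coding genes whose symbol starts with Adgr in the GENCODE M21 annotation of GRCm38, and they were grouped by the subfamily letter that follows. There were 27 such genes of 21474 protein-coding genes matched in the deposited tables, and of 43346 genes with an Ensembl identifier. The Celsr genes, which form the C subfamily, carry other symbols and are given only beside the members.

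Adhesion receptors join a long extracellular region, built from domains that bind other cells or matrix, to the membrane-spanning bundle of a G protein-coupled receptor. Most of them cut themselves during folding, between a leucine and a serine or threonine just outside the membrane, and the stretch that the cut frees can act as a tethered agonist of the receptor. In blood, Adgrg1 is known as a receptor of stem and progenitor cells, Adgre5 as a leukocyte receptor, and Adgre1 as a surface marker of mouse macrophages, while Adgrl4 was described mainly in vascular endothelium.

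Male C57BL/6J mice 5 to 6 weeks old gave the cells, labelled as hematopoietic stem cells (HSC). Such cells reside in bone marrow and renew the blood lineages. No genotype or treatment is labelled, so there was 1 group of 2 libraries and no contrast between conditions. Each library was made from 100 ng of RNA depleted of ribosomal RNA, with the ScriptSeq kit. The labelled size range differed, at 172 to 1452 nucleotides in replicate 1 and 232 to 1000 nucleotides in replicate 2. The labels give the libraries separate biosamples and biological replicate numbers but 1 donor entry. The labels do not say whether the libraries came from different animals or from pools, or which gate defined the cells. The spread between these libraries may therefore be technical. With 2 libraries an exact sign-flip permutation test cannot go below p = 0.5, so levels are given per library, with the mean and SD, and no test was run.

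Of the 7 members that reached 1 TPM in both libraries, 5 encode the self-cleavage motif. TPM is a level per transcript length, scaled to a fixed sum in each library. The motif was searched in the coding transcripts of GENCODE M21 as Cys, any residue, Cys, any residue, His, Leu, then Ser or Thr. The 45 bases of coding sequence around it are shown for those 5, in the transcript that took the largest share of each gene, because this is the site that defines how the receptors of this family mature. Capitals mark the codons for His, Leu and Thr, and the cut falls between the last 2 of these.
Adgrl4: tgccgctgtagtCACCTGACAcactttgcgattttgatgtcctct
Adgrg1: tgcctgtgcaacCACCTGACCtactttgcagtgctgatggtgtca
Adgrg3: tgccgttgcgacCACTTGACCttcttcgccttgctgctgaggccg
Adgre5: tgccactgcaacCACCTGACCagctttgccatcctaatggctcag
Adgrl2: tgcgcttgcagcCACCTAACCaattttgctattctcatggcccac

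The motif begins at codon 450 of 739 in Adgrl4, codon 377 of 687 in Adgrg1, codon 239 of 542 in Adgrg3, codon 413 of 724 in Adgre5 and codon 823 of 1487 in Adgrl2. All 5 windows use Thr, not Ser, after the cut. Between pairs of these windows, 25 to 33 of the 45 bases and 8 to 11 of the 15 encoded residues were identical. These counts include the motif, on which the windows were found and aligned. Its Cys, Cys, His and Leu are therefore identical in every pair by construction, and the shared Thr adds to them. Adgrl4 and Adgrl2, of the same subfamily, shared 11 residues, and so did Adgre5 and Adgrl2, of different subfamilies. Adgrg1 and Adgrg3, both of subfamily G, shared 8, as few as any pair. Adgra3 and Adgrg7 were the other detected members, and the motif as spelled here was not found in their coding transcripts. Among the 20 members that were not detected, 11 held it. In all, 16 of 27 members did.

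The libraries held 27901074 counts in replicate 1 and 48490188 in replicate 2. Protein-coding genes took 16.3% of TPM in replicate 1 and 20.3% in replicate 2, since TPM was scaled over all features of the total RNA, so a TPM here is a share of all RNA counted and not of messenger RNA alone. Of 10 HSC and progenitor markers, 8 reached 1 TPM in both libraries, with Kit at 36.4 and 45.1 TPM and Cd34 at 145 and 166 TPM in replicates 1 and 2. Slamf1, an antigen used to sort the most primitive stem cells, was at 0.42 and 0.43 TPM, and Flt3, an antigen of multipotent progenitors, at 57.9 and 53.2 TPM. All 10 neutrophil markers were detected, with a summed level of 3069 TPM in replicate 1 and 1152 TPM in replicate 2. In bulk libraries such as these, fewer cells of a type and less RNA per cell cannot be told apart.

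At 1 TPM or more in both libraries, 7 members, 25.9% of the family, were detected, against 44.0% of all protein-coding genes. Summed over the 27 members the level was 227 TPM in replicate 1 and 277 TPM in replicate 2, or 0.139% and 0.137% of the TPM of protein-coding genes. A further 9 members, 33.3%, had 0 counts in both libraries, against 35.3% of all protein-coding genes. The remaining 11 fell between these, 5 with at least 10 counts in each library and 6 with fewer in at least 1 of them. The level was concentrated in few genes: Adgrl4, Adgrg1 and Adgrg3 together held 92.3% ± 0.50 (SD, n = 2) of the summed TPM.

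**Figure D1:**
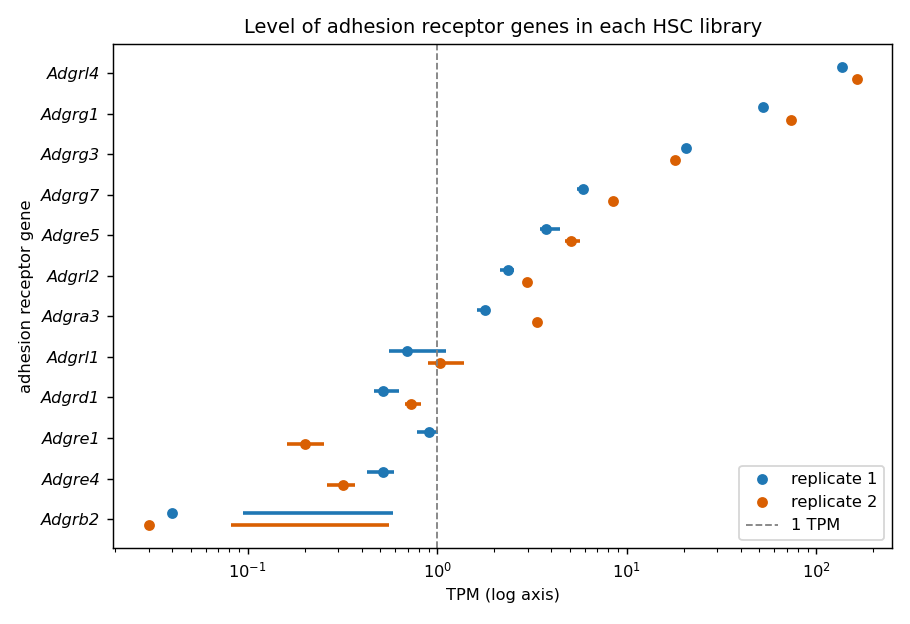
Level of the 12 members with at least 10 expected counts in both libraries. Points give the deposited TPM on a log axis and bars the deposited interval, blue for replicate 1 and orange for replicate 2, with a dashed line at 1 TPM. Adgrl4, at 137 and 164 TPM, stands highest, and 7 members lie right of the line in both libraries. The bars of Adgrb2 do not hold its points because the interval surrounds the posterior mean.

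Subfamily L, the latrophilins and their relatives, held the largest share of adhesion receptor RNA, 61.7% of the summed TPM in replicate 1 and 60.6% in replicate 2. Subfamily G followed with 34.9% and 35.9%. Subfamily E held 2.28% and 2.02%, subfamily A 0.802% and 1.21%, and subfamily D, a single gene, 0.229% and 0.263%. These shares kept 1 order in both libraries, and those of L and G differed by far more than their spread between libraries (61.2% ± 0.81 against 35.4% ± 0.67, SD, n = 2). Subfamilies B and F each held under 0.03% in each library, and subfamily V, again a single gene, held 0 counts. By counts, which are not divided by length, subfamily L held 66.1% and subfamily G 31.0% on average.

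**Figure D2:**
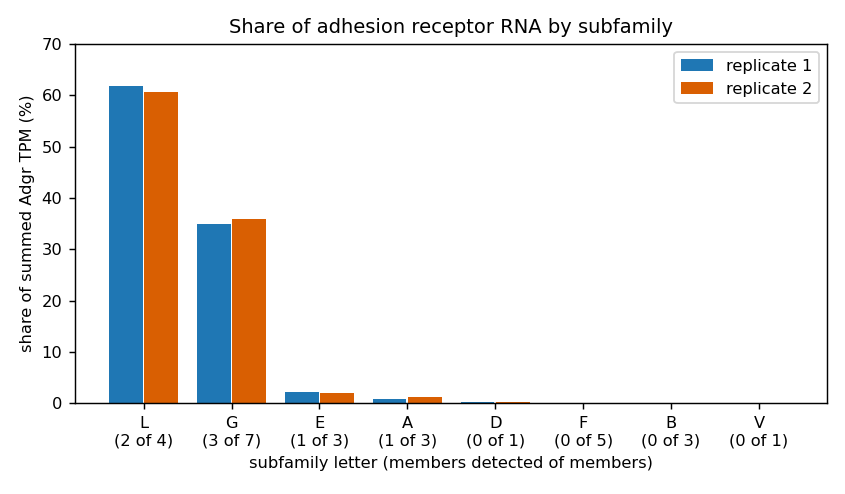
Share of the summed TPM of the 27 Adgr genes in each subfamily, as percent, with blue bars for replicate 1 and orange bars for replicate 2. Numbers under each letter give the members detected of the members. The bars of L (61.7% and 60.6%) and G (34.9% and 35.9%) hold nearly all of the family's RNA.

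Adgrl4, at chr3:151437887-151545086 on the plus strand, gave 44945 counts and 137 TPM in replicate 1 and 78987 counts and 164 TPM in replicate 2. It encodes a receptor with epidermal growth factor-like domains. Its mean level was 151 TPM ± 19.2 (SD, n = 2), and by its level in each library it ranked 167 among protein-coding genes in replicate 1 and 166 in replicate 2. The deposited intervals, 133 to 136 TPM and 161 to 164 TPM, were narrow and did not overlap. The interval is built around the posterior mean, so the deposited TPM can lie just outside it, as it does here. Adgrl4 alone accounted for 97.8% and 97.6% of the TPM of subfamily L.

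The level of Adgrl4 stood beside low levels of most endothelial markers. The 10 genes of that list summed to 15.02 TPM in replicate 1 and 19.6 TPM in replicate 2, so that Adgrl4 alone exceeded the whole list in each library. Cdh5, the cadherin of endothelial junctions, had 0 counts in both libraries, and Cldn5, Plvap and Ptprb were at 0.06 TPM or less. Kdr was at 0.05 TPM in replicate 1 and 0.20 TPM in replicate 2, and Stab2 at 0.01 and 1.29 TPM. By TPM, 7 of the 10 genes were higher in replicate 2, 2 were lower and 1 was equal. The median detected protein-coding gene was itself 1.22-fold higher in replicate 2, so this count is not read as a trait of the list. The 4 endothelial markers detected were Pecam1, Emcn, Tek and Vwf, which blood stem cells also express. Pecam1 was the highest of them, at 8.13 and 9.46 TPM. The part of endothelial cells in the level of Adgrl4 was not tested.

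Adgrl2, a latrophilin, was the other L member detected. It lies at chr3:148815583-148990555 on the minus strand and reached 2.36 TPM from 890 counts in replicate 1 and 2.99 TPM from 2002 counts in replicate 2, a mean of 2.68 TPM ± 0.45 (SD, n = 2). Adgrl1, the receptor first found through its binding of a spider toxin, sat at the threshold with 0.69 TPM from 193 counts and 1.03 TPM from 562 counts. Its intervals, 0.557 to 1.12 TPM and 0.897 to 1.39 TPM, overlapped. Adgrl3, the remaining latrophilin, had 0 counts in both libraries.

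Adgrg1 was the leading G member and the second of the family. The gene lies at chr8:94974751-95014217 on the plus strand. Its level was 52.6 TPM from 15489 counts in replicate 1 and 73.2 TPM from 31882 counts in replicate 2, with a mean of 62.9 TPM ± 14.5 (SD, n = 2). Its ranks among protein-coding genes were 400 in replicate 1 and 367 in replicate 2. Replicate 2 was the higher library, and the intervals, 50.9 to 52.5 TPM and 71.7 to 73.3 TPM, did not overlap.

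Adgrg3, a receptor known from neutrophils and other granulocytes, starts 3.474 kb beyond the end of Adgrg1 on the same strand, at chr8:95017692-95045250, with no protein-coding gene between. Its level was 20.7 TPM from 4006 counts in replicate 1 and 18.0 TPM from 5117 counts in replicate 2, a mean of 19.3 TPM ± 1.9 (SD, n = 2). By TPM it was the single detected member that was lower in replicate 2. The third gene of this cluster, Adgrg5, ends 31.47 kb before Adgrg1 and had 8 counts in replicate 1 and 0 in replicate 2. These 3 neighbouring genes of 1 subfamily thus stood at 62.9, 19.3 and 0.02 TPM on average.

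Adgrg7, which is known mainly from the intestine, was detected at 5.91 TPM from 1280 counts and 8.45 TPM from 2690 counts in replicates 1 and 2. It lies alone at chr16:56724609-56795855 on the minus strand, and its mean was 7.18 TPM ± 1.80 (SD, n = 2). A receptor better known from gut epithelium was the fourth of the family here. The other G members were at or near 0. Adgrg2 had 11 counts and Adgrg6, the receptor that Schwann cells need to form myelin, 6 counts in replicate 1, and both had 0 in replicate 2. Adgrg4 had 0 in both.

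Adgre5, the leukocyte receptor also called CD97, led subfamily E. It lies at chr8:83723251-83741326 on the minus strand and gave 3.76 TPM from 693 counts in replicate 1 and 5.09 TPM from 1154 counts in replicate 2, a mean of 4.42 TPM ± 0.94 (SD, n = 2). Its last part overlaps Ddx39 on the opposite strand, a gene at 10.8 and 12.5 TPM in these libraries. No source used here says whether the counting used strand, so reads from the overlap cannot be assigned with certainty. Protein-coding transcripts of at least 1000 nucleotides, an alternative chosen after seeing the data, left Adgre5 at 2.71 and 2.85 TPM, and the gap between the libraries nearly closed.

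The other E genes lie on chromosome 17 and were below the threshold. Adgre1, the macrophage marker, gave 0.90 TPM from 238 counts in replicate 1 and 0.20 TPM from 76 counts in replicate 2, so replicate 1 was 4.50-fold higher and the intervals, 0.784 to 1.01 TPM and 0.161 to 0.252 TPM, did not overlap. Adgre4, a receptor of myeloid cells, gave 0.52 TPM from 147 counts and 0.32 TPM from 133 counts, again higher in replicate 1, by 1.63-fold. Both are low, and each was higher in the library with fewer counts in total.

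Adgra3 was the single detected A member, an orphan receptor at chr5:49959956-50059006 on the minus strand. It reached 1.78 TPM from 659 counts in replicate 1 and 3.37 TPM from 1852 counts in replicate 2, a mean of 2.58 TPM ± 1.12 (SD, n = 2). Replicate 2 was 1.89-fold higher, the widest gap between the libraries among the 7 detected members. Adgra2, a coreceptor for Wnt signals in brain vessels, had 16 counts in replicate 1 and 1 in replicate 2, and Adgra1 had 0 in both.

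Adgrd1 stayed below the threshold in both libraries, at 0.52 TPM from 225 counts and 0.73 TPM from 468 counts. It stands alone in its subfamily and is known to couple to the stimulatory G protein. A ribosomal protein pseudogene, Rps16-ps2, lies within it on the opposite strand with 405 counts in replicate 1 and 145 in replicate 2. Adgrb2, of the brain-specific angiogenesis inhibitor group, had 13 and 19 counts, or 0.04 and 0.03 TPM. Its deposited posterior mean was higher, at 0.31 and 0.28 TPM. Its relatives Adgrb1 and Adgrb3 had 0 counts in both libraries.

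None of the 5 F genes reached 10 counts in both libraries, and all but Adgrf3, on chromosome 5, lie together on chromosome 17. Adgrf5, known from lung and vascular endothelium, had 16 counts in replicate 1 and 0 in replicate 2. Adgrf3 had 1 count in replicate 1, listed at 0 TPM, and 2 counts in replicate 2, listed at 0.08 TPM, where the counts were assigned to a transcript of 426 nucleotides. Adgrf1, Adgrf2 and Adgrf4 had 0 counts in both. Adgrv1, the very large receptor of hair cell and photoreceptor links, also had 0.

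For the 9 members at 0 in both libraries (Adgra1, Adgrb1, Adgrb3, Adgrf1, Adgrf2, Adgrf4, Adgrg4, Adgrl3 and Adgrv1), the limit that a count of 0 allows was taken as 3 counts. That limit lay between 0.00754 and 0.0173 TPM in replicate 1 and between 0.00507 and 0.0118 TPM in replicate 2, depending on gene length. It covers counting error only. The deposited upper bounds were wider and reached 0.751 and 0.802 TPM for Adgrl3. Another 4 members had few counts in replicate 1, from 6 to 16, and 0 in replicate 2 (Adgrf5, Adgrg2, Adgrg5 and Adgrg6), and 0 members showed the reverse. The same share over all protein-coding genes was not taken, so this count is not read as a trait of the family.

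The order of levels was nearly the same in both libraries. For a pair to count as ordered, 1 gene had to be higher in each library, with separate intervals each time. By that rule 20 of the 21 pairs of detected members were ordered. Adgrl4 exceeded Adgrg1 by 2.60-fold in replicate 1 and 2.24-fold in replicate 2. Adgrg1 exceeded Adgrg3 by 2.55-fold and 4.07-fold, and Adgrg3 exceeded Adgrg7 by 3.50-fold and 2.13-fold. The steps further down were smaller. Adgrg7 exceeded Adgre5 by 1.57-fold and 1.66-fold, and Adgre5 exceeded Adgrl2 by 1.59-fold and 1.70-fold.

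The pair without an order was Adgrl2 and Adgra3. Adgrl2 was the higher in replicate 1, by 1.33-fold, and Adgra3 the higher in replicate 2. Adgra3 in turn exceeded Adgrl1 by 2.58-fold and 3.27-fold. Among all 12 members with at least 10 counts in both libraries, 55 of 66 pairs were ordered and 6 of the 11 pairs of neighbours. From Adgrl1 down through Adgrd1, Adgre1, Adgre4 and Adgrb2, no gene was ordered against the next.

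No detected member differed by more than 2-fold between the libraries with separate intervals, 0 of 7, against 9.27% of the 9900 protein-coding genes at a mean of at least 1 TPM. Of the 7, 6 were higher in replicate 2 with separate intervals, against 58.0% of detected protein-coding genes, and 1, Adgrg3, was lower, against 12.6%. Most protein-coding genes shared the upward shift. The median log2 ratio of replicate 2 over replicate 1, with 0.1 TPM added to each value, was 0.29 over the 9443 detected protein-coding genes, with an SD of 0.50. Relative to that median, 5 of the 7 members lay above and 2 below.

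Adgra3 lay furthest above the median, at 0.60 on the log2 scale after the median was taken off. Adgrg7 followed at 0.22, Adgrg1 at 0.19, Adgre5 at 0.14 and Adgrl2 at 0.04. Adgrl4 lay close to it, at -0.03. Adgrg3 lay furthest below among the detected members, at -0.49, and all 7 were inside the central 95% of the detected genes, -0.81 to 1.25 before the median was taken off.

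For some members the direction depends on the scale. Rescaling TPM over protein-coding genes takes the same 0.32 off every log2 ratio, which put Adgrl4 at 841 in replicate 1 and 809 in replicate 2, with replicate 1 the higher. That change is shared by all genes and is not particular to Adgrl4. By CPM, counts scaled to the library total without division by length, Adgrl4 was at 1611 and 1629, with replicate 2 the higher. Adgre5 was at 24.8 and 23.8 CPM, with replicate 1 the higher, but at 23.1 and 25.1 over protein-coding genes. Adgrl2 was higher in replicate 2 on each scale, at 14.5 and 14.7 over protein-coding genes and 31.9 and 41.3 by CPM. Adgra3, at 23.6 and 38.2 CPM, and Adgrg1, at 555 and 657, were higher in replicate 2 on each of these scales. Adgrg3, at 144 and 106, was lower in replicate 2 on each.

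**Figure D3:**
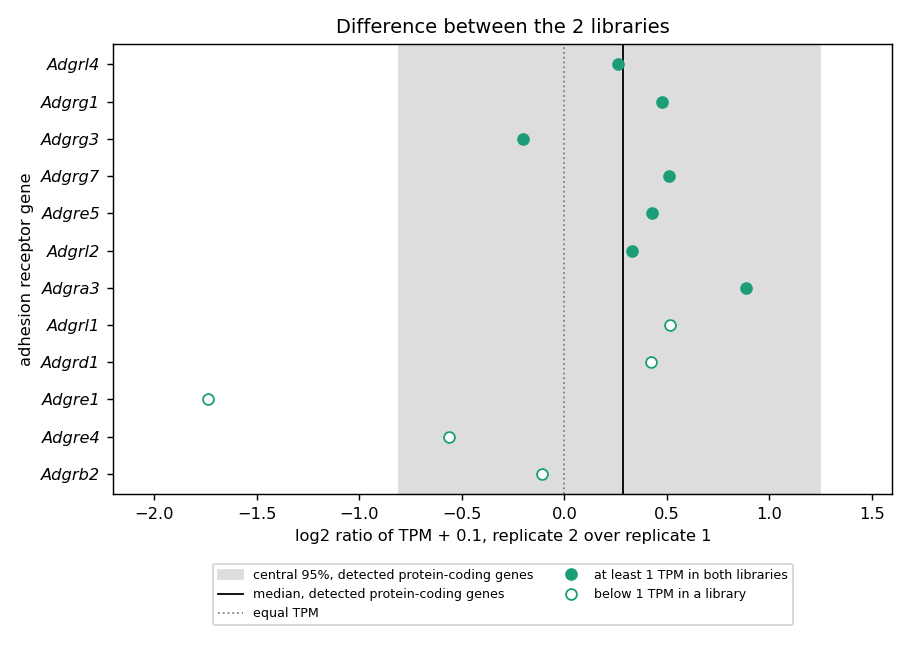
Log2 ratio of TPM + 0.1 in replicate 2 over replicate 1 for the 12 members with at least 10 counts in both libraries. Filled points are members at 1 TPM or more in both libraries and open points the others, the black line is the median of the 9443 detected protein-coding genes (0.29), the dotted line marks equal TPM, and the grey band holds the central 95% of those genes, -0.81 to 1.25. Adgre1, at -1.74, is the one member outside the band. It was below 1 TPM in both libraries, and no band was drawn for genes at that level.

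Adgrg3, Adgre1 and Adgre4 are receptors of granulocytes and macrophages, and each was lower in replicate 2. By TPM the leukocyte receptor Adgre5 went the other way, at 3.76 in replicate 1 and 5.09 in replicate 2. The summed level of the 10 neutrophil markers was 3069 TPM in replicate 1 and 1152 TPM in replicate 2, and that of the 12 monocyte and macrophage markers was 371 and 173 TPM. Of the second list 5 were detected, Marco had 0 counts, and Csf1r, the receptor that defines the lineage, was at 1.58 and 0.61 TPM. By gene, all 10 neutrophil and 10 of the 12 monocyte and macrophage markers were lower in replicate 2, and Lyz2, at 334 and 153 TPM, made up most of the second sum. Eosinophil markers summed to 51.4 and 30.1 TPM, with 4 of 7 detected. That gap lay almost wholly in Prg2, at 38.7 and 17.7 TPM, while Epx was higher in replicate 2, at 1.90 and 4.21 TPM. Erythroid markers went the other way, at 35.1 and 112 TPM, with 5 of 8 detected and all 8 higher in replicate 2. Car1, at 9.74 and 66.9 TPM, held most of that gap. The part of these cells in the levels of Adgrg3, Adgre1, Adgre4 and Adgre5 was not tested.

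Few transcripts carried most of the RNA of the leading members. The deposited isoform percent is the share of a gene's TPM in 1 annotated transcript. The full coding transcript of Adgrl4, 4106 nucleotides long, held 96.7% of the gene's TPM in replicate 1 and 95.5% in replicate 2. Adgrg3, Adgrg7, Adgra3 and Adgre4 had 1 annotated transcript each in the deposited tables. A coding transcript of 6052 nucleotides held 59.6% and 81.7% of Adgrl2, the rest going to a shorter coding transcript (23.0% and 4.00%) and one with a retained intron (17.4% and 14.3%).

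Adgrg1 was counted in 2 transcripts with separate starts 7.264 kb apart that encode the same protein. The form from the upstream start held 91.1% of the gene's TPM in replicate 1 and 95.2% in replicate 2, and the form from the downstream start held 8.94% and 4.78%. In TPM, the upstream form was at 47.9 and 69.7 and the downstream form at 4.70 and 3.50. The upstream form was the higher by a wide margin in both libraries, and the rise of the gene's TPM in replicate 2 lay in it alone. GENCODE M21 annotates more coding transcripts of this gene than the M4 tables counted, and its gene start, chr8:94974751, lies before both of these starts. The shares are therefore those assigned between the 2 forms counted, and the use of each start was not measured.

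The DNA before each of these starts is shown because the shares assigned to the counted forms were so unequal. Both stretches lie on the plus strand of GRCm38.p6, come from the RefSeq promoter windows and end 30 bases before the RefSeq start. The first, before the upstream start, is chr8:94976859-94977078, and the second, before the downstream start, is chr8:94984149-94984368.
Adgrg1 upstream: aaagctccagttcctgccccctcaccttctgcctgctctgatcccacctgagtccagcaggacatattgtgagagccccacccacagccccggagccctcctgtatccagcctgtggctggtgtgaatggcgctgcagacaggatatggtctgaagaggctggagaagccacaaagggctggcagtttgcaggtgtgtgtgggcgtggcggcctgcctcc
Adgrg1 downstream: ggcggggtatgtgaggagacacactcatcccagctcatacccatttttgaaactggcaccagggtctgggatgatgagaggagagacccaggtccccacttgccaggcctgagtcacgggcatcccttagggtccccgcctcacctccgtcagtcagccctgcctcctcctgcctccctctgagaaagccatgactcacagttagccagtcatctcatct

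The full windows, 250 bases before to 50 after each start, were alike in composition, with 60.7% G or C in both and 7 and 6 CG pairs, against a median of 7 over all promoters. A set of 5 short motifs was searched on both strands, a GATA motif (AGATAA), an ETS motif (GGAAGT), a RUNX motif (TGTGGT), an E-box (CAGCTG) and a TATA box (TATAAA). None of these letters occurred in either Adgrg1 window or in those of Adgrl4, Adgrg3 and Adgra3. The windows of Adgra1, Adgrb2 and Adgrl1, which were not detected, held none either. The share of all windows without any of the 5 motifs was not taken, so this absence is not read as a trait of these genes. The GATA, ETS, RUNX, E-box and TATA letters occurred in 11.2%, 23.8%, 16.8%, 16.3% and 13.6% of the 32851 RefSeq promoter windows, in that order. The Adgrg7 window held the GATA letters and the Adgrl2 window the RUNX and TATA letters. Windows were matched for 20 of the 27 members, and those of Adgra2, Adgrb1, Adgrd1, Adgre1, Adgre5, Adgrf2 and Adgrf3 were not matched.

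Adgre5 was the most divided of the detected members. Its leading coding transcript, 2986 nucleotides long, held 43.3% in replicate 1 and 48.4% in replicate 2. Another coding form, of 2867 nucleotides, held 23.9% and 0%. Transcripts with a retained intron held 27.8% and 43.9%, and the leading one of these, with 47.7 and 105 counts, lies within the span that overlaps Ddx39. By counts, coding transcripts held 93.1% and 88.0%, since a retained-intron fragment is short and weighs more per count in TPM.

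In a pair of members below the threshold the assignment differed between the libraries. The full coding transcript of Adgrl1, 8181 nucleotides long, took 176 of 193 counts in replicate 1 and 517 of 562 in replicate 2, but 37.1% and 48.9% of the gene's TPM. The largest share went to a coding fragment of 639 nucleotides in replicate 1, with 59.7% of the TPM from 15.8 counts. In replicate 2 it went to a retained-intron fragment of 909 nucleotides, with 51.1% from 45.2 counts. The full coding transcript alone left Adgrl1 at 0.25 and 0.50 TPM. Adgre1 was assigned wholly to a transcript of 3245 nucleotides in replicate 1 and wholly to one of 3124 nucleotides in replicate 2. By posterior means these shares were 92.8% and 75.4%, from 238 and 76 counts of the gene. Both transcripts encode the same protein.

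**Figure D4:**
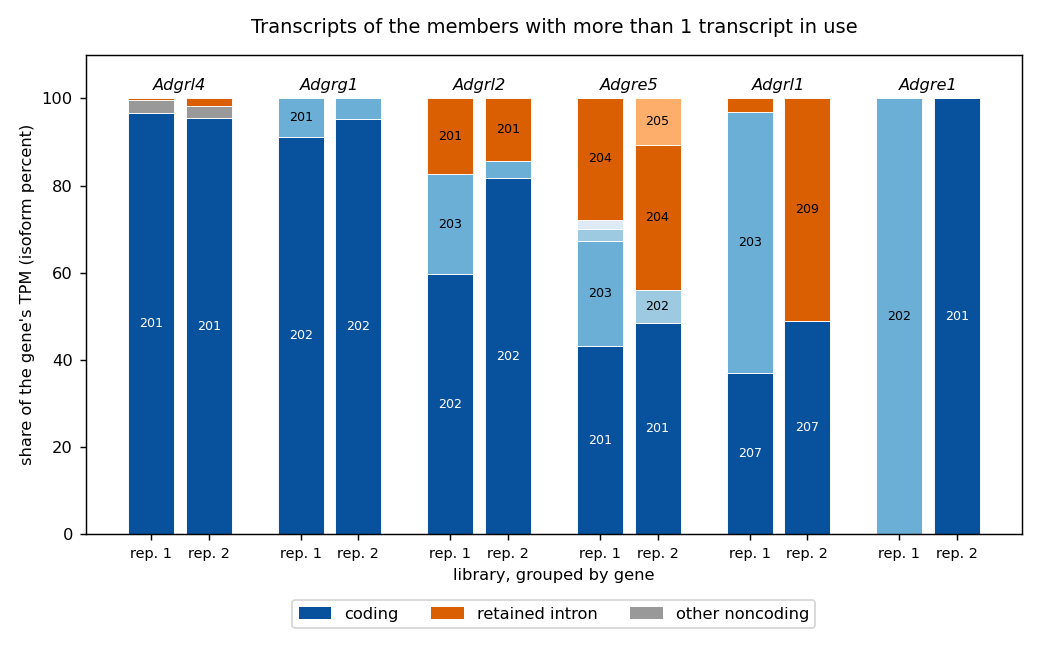
Share of each gene's TPM in its annotated transcripts, as deposited isoform percent, for 6 members with more than 1 transcript in use, with replicate 1 left and replicate 2 right in each pair. Blue shades are coding transcripts, orange shades those with a retained intron and grey other noncoding ones, and the labels are transcript numbers. Adgrl4 and Adgrg1 rest mostly on 1 transcript in both libraries. For Adgrl1 and Adgre1, both low, the transcript assigned the largest share differs between the libraries.

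Genes that act with the receptors were listed beside them. Of 16 G protein alpha subunits, which pass the signal from the receptor, 7 were detected, near the 44.0% of all protein-coding genes. The highest were Gnai2 at 55.9 and 84.9 TPM, Gnas at 39.6 and 53.6 TPM and Gnai3 at 22.7 and 35.0 TPM. Adgrl4 was above each of these genes in both libraries, and Adgrg1 above each but Gnai2.

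Of 7 arrestins and receptor kinases, which switch receptors off, 5 were detected, against 44.0% of all protein-coding genes. Grk2 (35.1 and 20.9 TPM), Arrb1 (13.5 and 15.9 TPM) and Grk6 (10.7 and 13.1 TPM) were the highest. Adgrg1 was above each of them in both libraries, and Adgrg3 lay below Grk2 and above Arrb1 and Grk6 in each. The Celsr genes were all below the threshold, with Celsr1 at 0.71 and 0.57 TPM, so no C member joined the 7 detected receptors. The 3 Celsr genes summed to 1.13 and 0.90 TPM.

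Known binding partners of the detected receptors were present unevenly. Of 28 partners listed for the whole family, 6 were detected and 13 had 0 counts in both libraries. The same shares over all protein-coding genes were 44.0% and 35.3%. For Adgrg1, Cd81 and Cd9, tetraspanins that hold the receptor in the membrane, were at 54.8 and 52.1 TPM and at 10.4 and 17.1 TPM. Tgm2, a transglutaminase that binds the Adgrg1 stalk, was at 2.91 and 3.98 TPM, and Col3a1, its collagen ligand in brain, had 0 counts. Partner and receptor were thus found in the same libraries for 3 of the 4 listed for Adgrg1, and in bulk RNA this says nothing of the same cell.

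For Adgre5, Cd55, a complement regulator on blood cells, was detected at 2.16 and 4.64 TPM, and Thy1 was below the threshold at 0.27 and 0.76 TPM. For the latrophilins, Flrt3 was at 0.24 and 1.36 TPM, Flrt1 and Flrt2 had 0 counts, and the 4 teneurins were at 0.06 TPM or less, with Tenm1 and Tenm2 at 0 counts in both libraries. No listed latrophilin ligand therefore reached 1 TPM in both libraries, while Adgrl2 did. Adgrl4, Adgrg3, Adgrg7 and Adgra3 had no partner on the list.

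**Figure D5:**
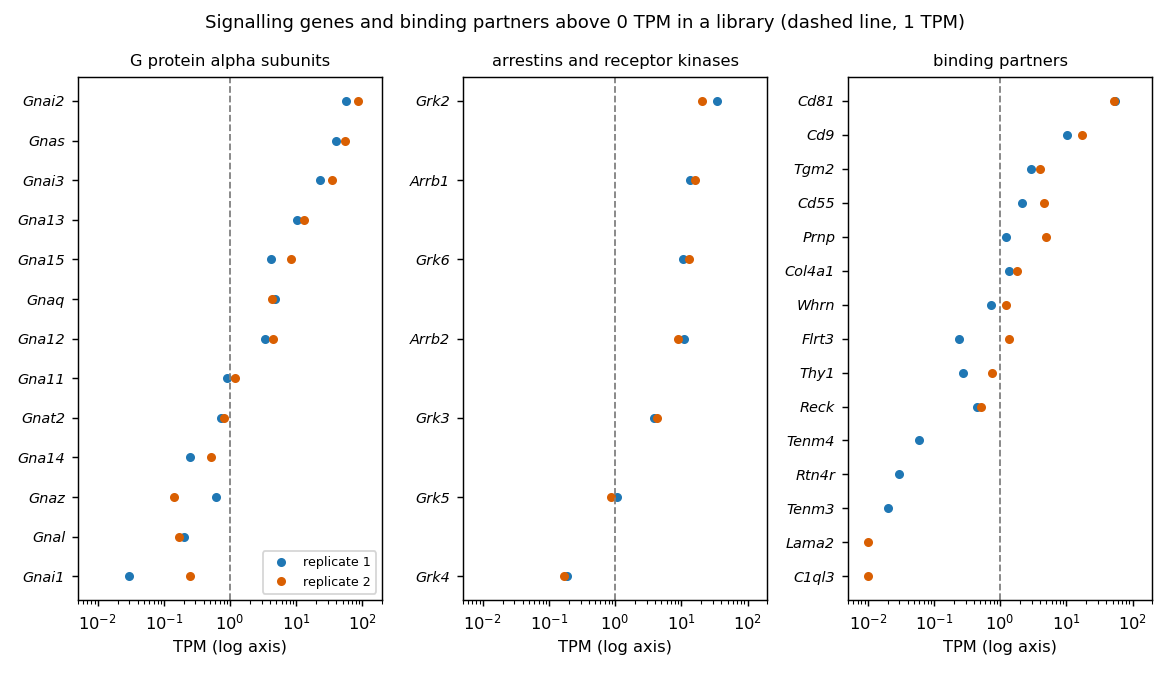
TPM on a log axis of the listed G protein alpha subunits, arrestins and receptor kinases, and binding partners, blue for replicate 1 and orange for replicate 2, with a dashed line at 1 TPM. Genes listed at 0 in both libraries, and the point of a library at 0, are not drawn. To the right of the line in both libraries lie 7 of 16 alpha subunits, 5 of 7 arrestins and receptor kinases and 6 of 28 binding partners. The share over all protein-coding genes was 44.0%.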

How the data were processed

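Total RNA-seq of 2 HSC libraries was analysed from the deposited gene and transcript tables. Per the file headers these give expected counts (estimated, not whole), TPM, posterior mean TPM, bounds of an interval around TPM (treated as a score), effective length and isoform percent, the deposited percent of TPM by transcript. The authors scaled TPM over all features. Build mm10 and annotation GENCODE M4 were used, per the sample text files, and no source used here names the aligner or counter. Symbols and coordinates were taken from GENCODE M21 by unversioned identifier. Genes without a match held 0.253% and 0.231% of counts.

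Detected meant at least 1 TPM in both libraries. A gene was called apart where its mean reached 1 TPM, the libraries differed by more than 2-fold and the intervals were separate. Per-library values are given for members with at least 10 counts in both libraries, and of each list for the 3 highest genes and the partners of detected members. The markers named in the text were chosen after their values were seen. Another list of signalling genes is not reported here. The members and lists were chosen with earlier results of these data known. Alternatives were other thresholds, posterior means, TPM over protein-coding genes, counts in place of TPM, scaling with edgeR 4.0.16 (TMM) or DESeq2 1.42.0 size factors, and each library alone; long coding transcripts alone were added after seeing the data. Tools were Python 3.11.15, pandas 2.3.3 and R 4.3.3.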

Additional observations from a re-analysis of the deposited data

How the results depend on the processing

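No paired analysis was possible because there was 1 group. The count of 7 detected members became 12 when 10 expected counts in both libraries were asked in place of 1 TPM. With the other thresholds and scales it ran from 6 to 10, and with each library alone from 7 to 8. The count of 0 members apart between the libraries became 1 at 1.5-fold (Adgra3), 1 at a mean of 0.5 TPM (Adgre1), 3 with no filter on low values (Adgre1, Adgrf5 and Adgrg6) and 2 with TPM over protein-coding genes (Adgre1 and Adgre4). It stayed at 0 with TMM-scaled counts and with DESeq2 size factors. By share of expected counts, which are not divided by length, subfamily L held 66.1% in place of 61.2%, subfamily G 31.0% in place of 35.4% and subfamily E 1.33% in place of 2.15%. Among the levels of 12 single members, posterior means moved Adgrb2 beyond the spread between libraries (from 0.035 to 0.295 TPM), and long coding transcripts alone moved Adgre5 (from 4.42 to 2.78 TPM) and Adgrl1 (from 0.86 to 0.375 TPM). Rescaling over protein-coding genes raises every level. Of the leading transcript shares, that of Adgre5 moved with posterior means (from 45.8% to 40.7%). A mean over 2 libraries cannot move by more than their SD when 1 is left out, so for levels and shares that alternative tests nothing. With 2 libraries, an SD rests on 1 difference, and counts under 10 leave a member's level to the assignment of few reads.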
